A study of Mus musculus with 32 samples.

Results

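Frozen normal mouse urothelium RNA was read with a low-input and with a standard amplification kit, and the arrays of the 2 preparations were compared over all probe sets. The arrays were chosen by their labels alone: 3 arrays of fresh frozen (FF) urothelium amplified with the GeneChip WT Pico kit from 2 ng of total RNA, and 2 arrays of FF urothelium amplified with the GeneChip WT Plus kit from 100 ng, 5 of the 32 arrays of the series. Kit and input differed together in this comparison. Per the labels, normal urothelium was taken from 9 mice, and the part used here was frozen in liquid nitrogen before RNA extraction with a column kit. The sources used here do not give the strain, age or sex of the mice, or say whether their RNA was pooled. The series also holds 3 FF urothelium arrays made with WT Pico from 0.5 ng, and arrays of BC57, a mouse bladder cancer cell line grown in culture and frozen as a pellet, with 3 from 2 ng WT Pico and 2 from 100 ng WT Plus. These served to set the urothelium values against a lower input with the same kit and against the same 2 preparations of another RNA. The remaining arrays came from formalin-fixed, paraffin-embedded (FFPE) material.

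Urothelium is the stratified epithelium that lines the bladder, with basal, intermediate and superficial umbrella cells. Expression arrays need far more nucleic acid than a small sample yields, so RNA is first copied and amplified, and any transcript copied more or less efficiently by a kit changes its apparent level. WT Plus amplifies by in vitro transcription from a phage promoter, and WT Pico adds a short polymerase chain reaction before that step. Both kits are meant to cover the whole transcript rather than its 3′ end alone.

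All values are log2 expression values that the authors obtained with RMA, a procedure that corrects background, normalizes arrays and summarizes the probes of each probe set, so a difference of 1 is a 2-fold change. Each of the 21237 probe sets carries 1 Ensembl mouse gene identifier, and 0 of these could be matched to a gene symbol here. The 2 genes with the largest rises and the 2 with the largest falls are therefore described under their identifiers, without names or functions. The labelled tissue was not checked against urothelial markers for the same reason, and sequences of these genes were not used here. The series' design describes the arrays of a group as repeats of a sample, with no word of separate animals. P-values therefore measure the spread between such arrays, which may be technical. Each fit took this spread from urothelium and BC57 arrays together, so a standard error does not describe the urothelium arrays alone. Nor do the sources used here say whether arrays of the 2 kits were run on the same occasion, and kit, input and run cannot be told apart.

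The 5 arrays had nearly the same overall distribution. RMA normalization can give this by itself, so it does not show that the preparations had equal signal. Array medians were 5.36, 5.37 and 5.37 with 2 ng WT Pico and 5.44 and 5.42 with 100 ng WT Plus. The SD over probe sets was 1.97, 1.96 and 1.96 with 2 ng WT Pico and 1.95 and 1.97 with 100 ng WT Plus. The medians did not overlap between the groups but differed by under 0.1, and no relabeling test was run, since 3 against 2 arrays allow only 10 arrangements and cannot reach 0.05. The 95th percentile was 8.63 to 8.64 with 2 ng WT Pico and 8.56 on both 100 ng WT Plus arrays.

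Arrays of different kits were less alike than arrays of 1 kit. Between 2 ng WT Pico and 100 ng WT Plus arrays, 884 to 954 probe sets differed by 1 or more in a pair (4.16% to 4.49%, 6 pairs). Among the 2 ng WT Pico arrays the same count was 16 to 30 (3 pairs), and between both 100 ng WT Plus arrays it was 17. Pairs made of a 0.5 ng and a 2 ng WT Pico array differed at 39 to 59 probe sets (9 pairs). Pearson correlations of array pairs, taken across probe sets that are no independent replicates, were 0.973 to 0.974 across kits, 0.996 to 0.997 within 2 ng WT Pico and 0.997 within 100 ng WT Plus. The distance between kits was thus seen in every pair of arrays and was not carried by a single one.

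The brightest transcripts were reordered as well. Of the 20 brightest probe sets of an array, 13 were shared in each of the 6 pairs of a 2 ng WT Pico and a 100 ng WT Plus array, while pairs within either group shared 19. Of the brightest 100, 66 to 72 were shared across kits, 95 to 96 within 2 ng WT Pico and 93 within 100 ng WT Plus. Of the brightest 1000, 715 to 725 were shared across kits, 955 to 966 within 2 ng WT Pico and 941 within 100 ng WT Plus. The 0.5 ng and 2 ng WT Pico arrays shared 927 to 938 of these. Over all probe sets the median move in rank between the group means was 2.3 percentile points, and 91.3% moved by less than 10 points, so most of the order held. Among the 20 brightest by group mean with 100 ng WT Plus, 2 were called lower with 2 ng WT Pico by the test described next. Among the 20 brightest with 2 ng WT Pico, 3 were called higher. Each list was chosen by the values of 1 group, which favours calls toward that group. In the brightest of 5 equal classes of probe sets by level, 11.1% were called in either direction.

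Differences were tested with limma, a linear model with moderated variances, and a probe set was called where its Benjamini-Hochberg adjusted p was under 0.05 and it differed by at least 1 on the log2 scale. WT Pico at 2 ng changed 857 probe sets relative to WT Plus at 100 ng, 4.04% of the 21237 tested. Of these, 406 were higher (1.91% of all tested) and 451 lower (2.12%) with 2 ng WT Pico. The majority direction depended on scaling, since centring each array on its median gave 486 higher and 365 lower. The median change of all probe sets was -0.01, and 83% had an absolute fitted change under 0.5. Adjusted p alone passed 8206 probe sets (38.6%), 3861 higher and 4345 lower. Of these, 4645 (56.6%) had an absolute change under 0.5, and the smallest change that passed was 0.14. The median standard error of a change was 0.09, so differences far smaller than 2-fold could pass the test.

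**Figure D1:**
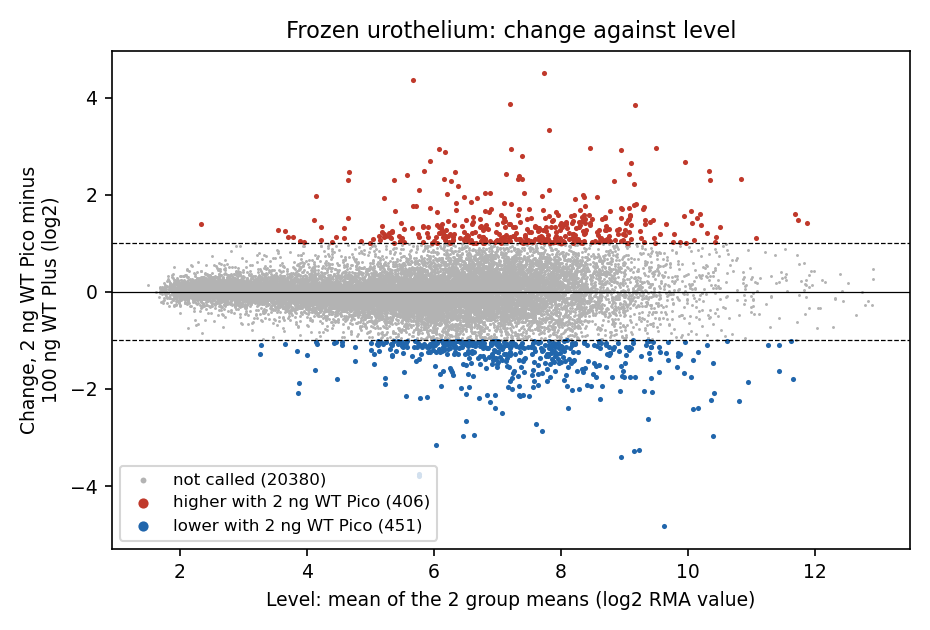
Fitted log2 change, 2 ng WT Pico minus 100 ng WT Plus, in frozen urothelium (y axis) against the level, the mean of both group means in log2 RMA units (x axis), for 21237 probe sets. Red points are the 406 probe sets called higher and blue points the 451 called lower with 2 ng WT Pico; dashed lines mark a change of 1 in either direction, and the calls lie mostly to the right, among brighter probe sets.

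Most calls were moderate in size. Among the 406 higher, 365 stayed under a 4-fold change, 36 lay between 4-fold and 8-fold, and 5 reached 8-fold or more. Among the 451 lower, the numbers in these classes were 409, 35 and 7. The 10th largest rise was 2.92 and the 50th 1.85 on the log2 scale, and the falls ranked 10th and 50th had sizes of 2.95 and 1.94. In all 406 the lowest 2 ng WT Pico array lay above both 100 ng WT Plus arrays, and in all 451 the highest lay below both. This is what the threshold asks for rather than a result, since the arrays of the groups did not overlap in 60.4% of all probe sets, with 2 ng WT Pico higher in 28% and lower in 32.4%. The median gap between the nearest arrays of the groups was 1.09 for the higher and 1.06 for the lower calls, while the range of the 3 arrays with 2 ng WT Pico had a median of 0.14 and 0.18.

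The largest rise was ENSMUSG00000074513. Its values were 9.89, 10.09 and 9.98 with 2 ng WT Pico, against 5.29 and 5.68 with 100 ng WT Plus. The fitted change was 4.50 ± 0.15 (SE, limma adjusted p = 5.55e-09), a 22.6-fold difference. The groups lay far apart, and the gene stood at the 98.9th percentile of all probe sets with 2 ng WT Pico and at the 50.9th with 100 ng WT Plus.

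ENSMUSG00000026198 had the second largest rise, with values of 7.74, 7.89 and 7.90 with 2 ng WT Pico, against 3.42 and 3.55 with 100 ng WT Plus. Its change was 4.36 ± 0.22 (SE, limma adjusted p = 7.04e-08). This SE draws on both RNAs, and the SD of the 100 ng WT Plus arrays was 0.09 in urothelium and 0.65 in BC57. The 100 ng WT Plus mean of 3.49 was inside the dimmest 20% of probe sets, which ended at 3.51. Detection calls were not used here, so this level may be background and the size of the change depends on it.

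The largest fall was ENSMUSG00000088088, with 7.35, 7.27 and 7.00 with 2 ng WT Pico, against 12.04 and 12.03 with 100 ng WT Plus. Its change was -4.83 ± 0.09 (SE, limma adjusted p = 2.27e-10), a 28.4-fold difference between levels that were both well above the median of all probe sets. With 100 ng WT Plus it stood at the 99.9th percentile, and with 2 ng WT Pico at the 81st.

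ENSMUSG00000096037 had the second largest fall. It measured 4.42, 3.69 and 3.50 with 2 ng WT Pico, against 7.73 and 7.58 with 100 ng WT Plus, a change of -3.78 ± 0.27 (SE, limma adjusted p = 1.02e-06). The 2 ng WT Pico arrays were more scattered here than for the other named genes (SD 0.48, n = 3), and replicate 1 was the highest of them. Replicate 3 was inside the dimmest 20% of probe sets, so the level with 2 ng WT Pico may be background and the size of the change depends on it.

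**Figure D2:**
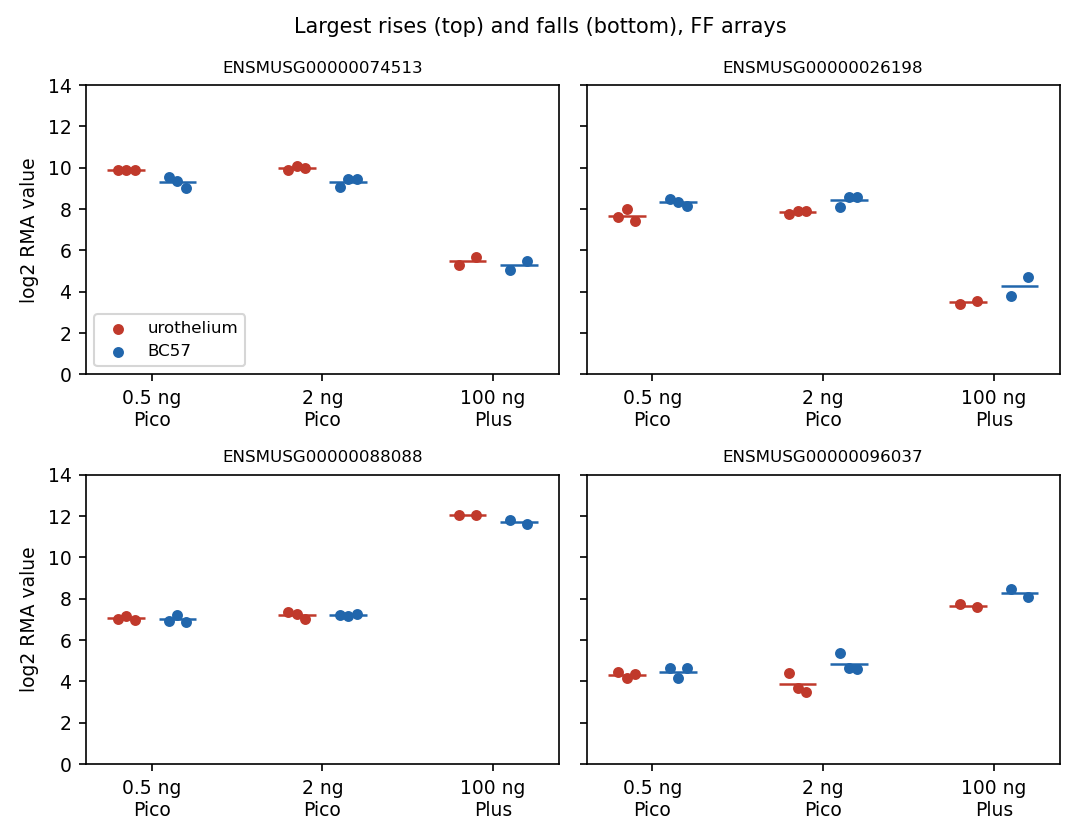
Log2 RMA values of the 2 largest rises (upper panels) and 2 largest falls (lower panels) on each FF array by RNA input and kit (x axis), with 3 arrays for each WT Pico input and 2 for WT Plus; red points are urothelium, blue points BC57, and horizontal bars group means. The 0.5 ng and 2 ng WT Pico values of each gene lie together and apart from the 100 ng WT Plus values in both RNAs.

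At 0.5 ng WT Pico the same 4 genes lay near their 2 ng levels. ENSMUSG00000074513 had 9.89, 9.89 and 9.87 and ENSMUSG00000026198 had 7.60, 8.01 and 7.40 with 0.5 ng WT Pico. ENSMUSG00000088088 had 7.02, 7.19 and 6.99 and ENSMUSG00000096037 had 4.44, 4.16 and 4.34. Within WT Pico, the changes of 0.5 ng minus 2 ng were -0.11 ± 0.12, -0.18 ± 0.16, -0.14 ± 0.11 and 0.44 ± 0.24 in the order just given (SE, limma adjusted p 0.603 to 0.817). None of the 4 passed the test for input.

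FFPE urothelium gave other levels for these genes, shown as a description, since fixation differs as well. ENSMUSG00000096037 averaged 4.54 ± 0.71 with 0.5 ng WT Pico, 3.91 ± 0.42 with 2 ng WT Pico (SD, n = 3 each) and 12.95 ± 0.10 with 50 ng and the SensationPlus kit (n = 2), where it was far brighter than on any frozen array. ENSMUSG00000088088 averaged 9.89 ± 0.05, 9.94 ± 0.19 and 12.85 ± 0.04 in the same order. ENSMUSG00000026198 averaged 9.03 ± 0.18, 8.35 ± 0.23 and 5.21 ± 0.19. ENSMUSG00000074513 averaged 8.71 ± 0.47, 9.08 ± 0.20 and 8.07 ± 0.09, and its lowest WT Pico array, at 8.17, was just above the higher 50 ng array, at 8.13. In all 4 genes the WT Pico arrays lay on the same side of the 50 ng arrays as of the 100 ng WT Plus arrays in frozen RNA. The full lists of calls were mixed. The 406 genes called higher had FFPE medians of 6.92 with 0.5 ng WT Pico, 7 with 2 ng and 6.88 with 50 ng. Their frozen medians were 8.22 with 2 ng WT Pico and 6.87 with 100 ng WT Plus. The 451 called lower had FFPE medians of 6.38, 6.4 and 7.26 in that order, against frozen medians of 6.47 and 7.83.

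The genes that changed were mainly bright ones. Probe sets were divided into 5 equal classes by level, the mean of the 2 ng WT Pico and the 100 ng WT Plus group means. The brightest class, above 7.13, held 473 of the 857 calls, 55.2%, and 11.1% of its probe sets were called. The share called was 5.82%, 2.40% and 0.753% in the next 3 classes and 0.0706% (3 probe sets) in the dimmest, which ended at 3.51. From dimmest to brightest the calls were 1, 17, 43, 104 and 241 higher and 2, 15, 59, 143 and 232 lower, so calls in both directions lay mostly in the brighter classes.

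The spread between arrays was smaller in the brighter classes. The root mean square SD between 2 ng WT Pico arrays was 0.139 in the dimmest and 0.084 in the brightest class, and between 100 ng WT Plus arrays 0.139 and 0.094. The central 90% of changes ran from -0.22 to 0.27 in the dimmest class and from -1.04 to 1.03 in the brightest. Dim probe sets changed by less between the groups although their repeat arrays were more scattered. A probe set near background cannot fall much. The dimmest class held 1 higher and 2 lower calls, and why its changes were small was not tested. Level is the mean over both groups, so a probe set that rises far from background leaves this class. How many of the dim ones carry signal was not tested. Class medians of the change, from dimmest to brightest, were 0.028, -0.042, -0.085, -0.014 and 0.061.

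**Figure D3:**
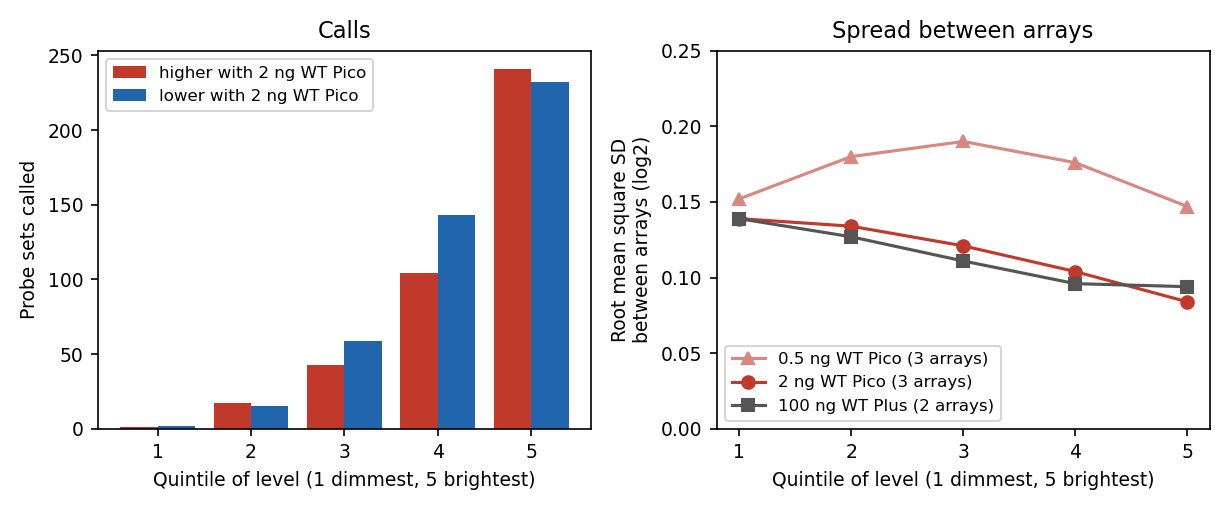
Left, number of probe sets called higher (red) and lower (blue) with 2 ng WT Pico than with 100 ng WT Plus in each of 5 equal classes of probe sets by level; the brightest class holds 241 and 232. Right, root mean square SD between urothelium arrays (log2) in the same classes for 0.5 ng WT Pico, 2 ng WT Pico and 100 ng WT Plus; the 2 ng and 100 ng curves run close together and the 0.5 ng curve lies above both.

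Few of the calls had a group mean in the range of the dimmest class. Its upper end is no detection limit, and how many calls rest on background was not tested. Of the 406 higher, 12 had their 100 ng WT Plus mean in the range of the dimmest class, and of the 451 lower, 8 had their 2 ng WT Pico mean there. In 173 of the higher and 153 of the lower calls both group means were in the range of the brightest class. The median level of the 406 was 8.22 with 2 ng WT Pico and 6.87 with 100 ng WT Plus, and that of the 451 was 6.47 and 7.83. In rank, the median of the higher calls was at the 92.3rd percentile with 2 ng WT Pico and the 75.5th with 100 ng WT Plus, and that of the lower calls at the 69th and the 89.4th.

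A lower input with the same kit gave few calls. WT Pico at 0.5 ng against WT Pico at 2 ng called 4 probe sets by limma, 0.0188% of those tested, all lower at 0.5 ng, with changes of -1.01 to -1.35 (limma adjusted p 5.55e-06 to 0.0369). None of these 4 was among the 857, which are 4.04% of all probe sets, so 4 are too few to show a relation. An unadjusted p under 0.05 was reached by 2075 probe sets, and adjusted p alone passed 66, of which 63 were lower. The count of 4 became 2 without 2 ng replicate 1, 2 ng replicate 3 or 0.5 ng replicate 3. In 99.4% of probe sets the fitted change with input was under 0.5 in size, against 83% for kit and input together. The steps in input were unequal. The step from 2 ng to the WT Plus input was much larger than that from 0.5 ng to 2 ng, and WT Pico was not run at the WT Plus input. The part of input in the 857 calls was therefore not tested.

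Against the same 100 ng WT Plus arrays, 0.5 ng WT Pico called 822 probe sets (3.87%), 303 higher (1.43%) and 519 lower (2.44%), and 2 ng WT Pico 857, 406 higher and 451 lower. The comparisons share their 100 ng arrays. Median levels of the 406 genes called higher at 2 ng were 8.03 with 0.5 ng WT Pico, 8.22 with 2 ng WT Pico and 6.87 with 100 ng WT Plus. Those of the 451 called lower were 6.52, 6.47 and 7.83. The 0.5 ng arrays took no part in choosing these genes, and in both lists their median lay near that of the 2 ng arrays. The median change of 0.5 ng minus 2 ng was -0.169 for the higher and -0.027 for the lower list, against 0.005 for all probe sets, and the 2 ng arrays in it are those that chose the lists. The root mean square SD between arrays was 0.17 with 0.5 ng WT Pico, 0.118 with 2 ng WT Pico and 0.115 with 100 ng WT Plus.

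The same pair of preparations was run on BC57 RNA with other arrays, which allows a repeat of the measurement in RNA of other cells. In BC57, 2 ng WT Pico called 779 probe sets relative to 100 ng WT Plus (3.67%), 330 higher (1.55%) and 449 lower (2.11%). Of the 406 genes called higher in urothelium, 210 were called higher in BC57, which is 51.7% of the urothelium list and 63.6% of the BC57 list. Of the 451 called lower, 245 were called lower in BC57, 54.3% of the urothelium list and 54.6% of the BC57 list. The number called in opposite directions by limma was 0, and 4 of the 857 had an opposite BC57 change at an unadjusted p under 0.05. Of the 402 urothelium calls not called in BC57, 24 had a BC57 change of opposite sign, and 306 had the same sign with an adjusted p under 0.05 by limma, which 32.8% of all probe sets passed in BC57 in either direction.

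How often a urothelium call was found in BC57 was also counted by size of change. Of the 774 urothelium calls under a 4-fold change, 382 were called in the same direction in BC57. Of the 83 at 4-fold or more, 73 were. Below 4-fold the median BC57 change was 0.99 for the higher and -1.01 for the lower calls. These medians lie at the threshold of 1, so many such genes miss a BC57 call by little. All 5 rises and all 7 falls of 8-fold or more in urothelium were called in BC57 too. The median change of the 406 higher calls was 1.25 in urothelium, against 1.01 in BC57. For the 451 lower calls it was -1.23 in urothelium, against -1.05 in BC57. The lists were chosen by their urothelium values, and 76 of their members had no BC57 call and a change called different between the RNAs, so the smaller BC57 medians are given as a description. Over all 21237 probe sets the changes in the 2 RNAs correlated at r = 0.803 (Spearman's rho 0.722). Among the 20380 probe sets not called in urothelium r was 0.724. The points share the array design and the kits, and no p is given.

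The 4 named genes moved alike in BC57. ENSMUSG00000074513 changed by 4.04 ± 0.15 and ENSMUSG00000026198 by 4.16 ± 0.22 (SE, limma adjusted p = 1.48e-08 and 1.12e-07). ENSMUSG00000088088 changed by -4.50 ± 0.09 and ENSMUSG00000096037 by -3.41 ± 0.27 (SE, limma adjusted p = 3.38e-10 and 2.47e-06). The difference of the change between urothelium and BC57 was 0.46 ± 0.22, 0.20 ± 0.31, -0.33 ± 0.13 and -0.38 ± 0.39 for these genes in the order given (SE, limma adjusted p 0.2 to 0.792). None of the 4 differences passed the test.

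**Figure D4:**
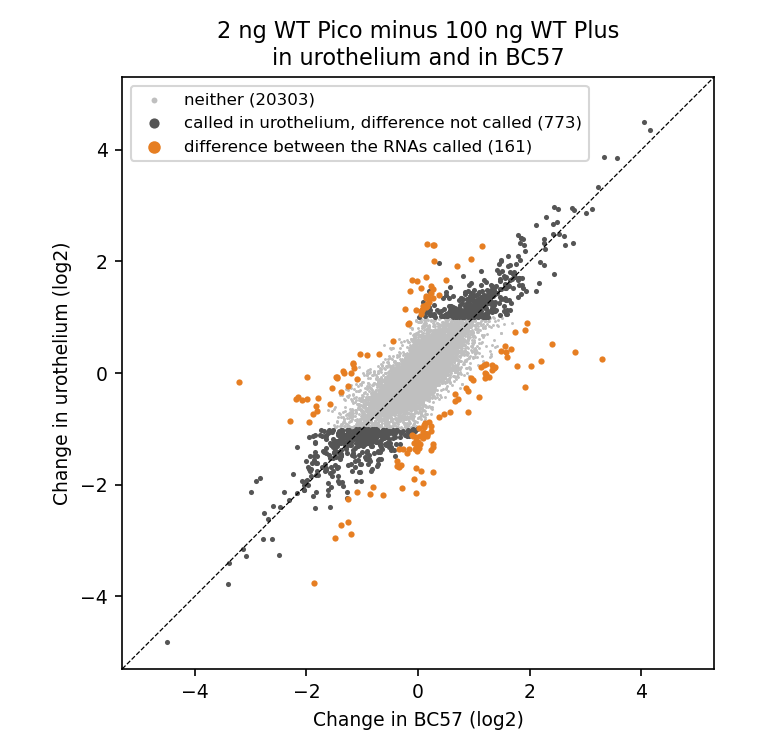
Fitted log2 change, 2 ng WT Pico minus 100 ng WT Plus, in urothelium (y axis) and in BC57 (x axis) for all probe sets; the dashed line marks equal changes. Dark grey points are 773 probe sets called in urothelium whose change was not called different in BC57, orange points the 161 whose change was called different between the RNAs, and most of the largest changes lie near the line at both ends, with 1 of the 7 falls of 8-fold or more called different.

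A minority of genes had a change called different between the RNAs. The difference itself was called by limma for 161 probe sets (0.758%), 66 with a more positive (0.311%) and 95 with a more negative change (0.447%) in urothelium than in BC57. After centring each array on its median the split was 84 to 74. Of the 161, 84 were among the 857 urothelium calls, and 773 of the 857 were not called different. Adjusted p alone passed 1228 probe sets for the difference, 588 more positive and 640 more negative in urothelium. A call also needed a difference of at least 1, so a gene without one may still have changed unequally in the RNAs. In 33 probe sets called higher and 43 called lower in urothelium, BC57 gave no call and the difference passed. In 27 called higher and 27 called lower in BC57, urothelium gave no call and the difference passed.

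Genes with such a difference that were called in urothelium alone or in BC57 alone had a higher median level in the RNA with the call. Calls lay mostly among bright probe sets, so this choice of genes itself favours a higher level there. Over the full 66 and 95, which mix both kinds, urothelium was the brighter RNA in 37 and 53. The 33 genes higher in urothelium alone by this test had a median level of 6.72 in urothelium and 4.27 in BC57, and 23 of them (69.7%) were in the dimmest 40% of BC57 probe sets. The 43 genes lower in urothelium alone had median levels of 7.42 in urothelium and 5.07 in BC57, where 15 (34.9%) were in the dimmest 40%, no more than the share of all probe sets that this class holds. In the other direction, the 27 genes higher and the 27 lower in BC57 alone had medians of 4.61 and 4.33 in urothelium, against 6.74 and 6.94 in BC57, and 14 (51.9%) and 21 (77.8%) of them were in the dimmest 40% of urothelium. Among the 455 genes called in both RNAs, 15 were in the dimmest 40% of urothelium and 15 in that of BC57, but a call needs a large change and calls were mostly bright. The part of level in these differences was not tested.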

How the data were processed

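Values were used as deposited, on a log2 scale; the submitters' processing notes name RMA and affy as the tools the authors used. The sources used here give no version of either, no array design or annotation build, and do not say whether all arrays were normalized jointly. No value was missing among 21237 probe sets and 32 arrays. Groups came from the sample titles. Differences were fitted in R 4.3.3 with limma 3.58.1 (lmFit, eBayes with trend, 2-sided, Benjamini-Hochberg over all probe sets). Each fit used the 4 groups of both conditions, urothelium and BC57, 10 arrays with 6 residual degrees of freedom for kit. The fit was tested on simulated data. Array data hold no read depth; the number of arrays limits the precision. Genes were named by size of change, the 2 largest rises and falls, since 0 identifiers matched a symbol. For the same reason 34 gene lists were not applied. Members and lists were chosen with earlier results of these data known. Replicate numbers were not taken to pair arrays: correlations of same-numbered arrays' deviations were -0.089 and -0.086 between 2 ng and 100 ng urothelium, -0.024 and 0.089 between 0.5 ng and 100 ng, -0.037 to 0.019 between 0.5 ng and 2 ng, and 0.067 and 0.155 between 2 ng and 100 ng BC57. Alternatives covered scaling, dim probe sets, variance model, arrays in the fit, single arrays and a replicate block.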

Additional observations from a re-analysis of the deposited data

Results flagged for a closer look

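The change, 2 ng WT Pico minus 100 ng WT Plus, differed between urothelium and BC57 at 161 probe sets by limma's test of the difference itself (adjusted p under 0.05 and a difference of at least 1). The median change of the 66 with a more positive difference was 1.09 in urothelium, against -0.15 in BC57. For the 95 with a more negative difference it was -1.08 in urothelium, against 0.15 in BC57. These medians pool unlike genes. The 66 include 33 called in urothelium alone (medians 1.38 in urothelium and 0.16 in BC57) and 27 called in BC57 alone (-0.23 and -1.55). The 95 include 43 called in urothelium alone (-1.33 and -0.03) and 27 called in BC57 alone (0.15 and 1.56).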

How the results depend on the processing

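The urothelium count of 857 was 843 to 889 under the alternatives for scaling, variance model, arrays in the fit and replicate block, and 766 among the 10618 probe sets brighter than the median. Without single arrays it was 852 to 893, with 776 to 812 of the 857 called again in the same direction. Centring kept 771 of the 857 and quantile normalization 812. Of the calls, 47.4% were higher with 2 ng WT Pico on the deposited values, 57.1% with centred arrays and 47.5% with quantile normalization, so the majority direction depended on centring. With a replicate block the counts were 852 in urothelium, 781 in BC57, 178 for the difference, 871 for 0.5 ng against 100 ng and 3 for 0.5 ng against 2 ng, and the block moved no count by over 1.5 times. Without single arrays the BC57 count was 782 to 831, the difference 159 to 168, 0.5 ng against 100 ng 834 to 872 and 0.5 ng against 2 ng 2 to 5. The difference between the RNAs gave 106 calls among probe sets brighter than the median, where fewer were tested. Of its calls, 41% were more positive in urothelium as deposited, 53.2% after centring and 30.2% among the brighter probe sets. Quantile normalization turned the 4 calls for input into 2, and the cause was not tested. The 4 named genes were called in all 12 alternatives each, with changes of 4.31 to 4.70, 4.29 to 4.42, -4.90 to -4.73 and -4.06 to -3.60 in the order of the report. No detection call or signal over background was used, which limits what can be said of dim probe sets.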
